A study of Bos taurus with 16 samples.

Results

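ADGRB1, TSHZ2 and UBE2E2 are 3 bovine genes that were selected on a lower gene mean of CpG methylation in MET_P than in CON_P endometrium, and all sites that the deposited table assigns to them were taken. They hold 160, 80 and 140 sites, 380 of the 199395 CpG positions in the table. The samples were endometrial cytobrush samples, which are brushings of the uterine lining, from multiparous Holstein-Friesian cows. The control cows (CON) received the control diet, and the MET cows received rumen-protected methionine (RPM), a form of the amino acid that passes the rumen intact, from day 12 postpartum. Every cow was inseminated between days 50 and 64 postpartum and brushed 4 to 8 h later, and the samples were afterwards divided into those that resulted in pregnancy (CON_P and MET_P) and those that did not (CON_noP and MET_noP). All brushings therefore preceded any visible pregnancy, and each group had 4 libraries of reduced representation bisulfite sequencing (RRBS). RRBS reads methylation at CpG positions close to MspI cutting sites, so each gene was sampled in short, separated stretches. A cytobrush takes up a mixture of cells, and a change in the methylation of 1 cell type cannot be told apart from a change in the cell mixture.

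DNA methylation is the addition of a methyl group to cytosine, in mammals mostly at CpG dinucleotides, and the methyl group comes from S-adenosylmethionine, which cells make from methionine. ADGRB1 (adhesion G protein-coupled receptor B1, also called BAI1) is a cell surface receptor that binds phosphatidylserine on dying cells and drives their engulfment through ELMO and DOCK1. TSHZ2 (teashirt zinc finger homeobox 2) is a transcription factor of the Teashirt family, whose members act as repressors with CtBP corepressors. UBE2E2 is a ubiquitin-conjugating (E2) enzyme, which takes activated ubiquitin from an E1 enzyme and, with an E3 ligase, passes it to target proteins.

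The sites of ADGRB1 (ENSBTAG00000006385) lay at chr14:1797832-1862308 of ARS-UCD1.2 and spanned 64.5 kb. Those of TSHZ2 (ENSBTAG00000007917) lay at chr13:80867067-81061509 and spanned 194 kb, and those of UBE2E2 (ENSBTAG00000047930) lay at chr27:42324262-42672119 and spanned 348 kb. The table assigns each of these sites to the gene as a whole, and exon, intron and promoter positions were not analysed here. In the RefSeq gene order of ARS-UCD2.0, ADGRB1 stands between LOC101905222 and TSNARE1, TSHZ2 between ZFP64 and ZNF217, and UBE2E2 beside UBE2E1, a close relative of the same E2 class. Sites with gaps of at most 200 bp were joined into blocks, which gave 27 blocks in ADGRB1, 14 in TSHZ2 and 23 in UBE2E2.

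The 3 genes differed in their overall methylation. UBE2E2 was almost fully methylated, with 106 of 140 sites above 80% over all libraries and 28.5% of its single values at 100%. TSHZ2 had 51 of 80 sites above 80% and none below 20%. ADGRB1 was mostly intermediate, with 103 of 160 sites between 20% and 80%, 50 above and 7 below. Of all sites in the series, 34.3% were intermediate and 48.3% lay above 80%. Library means over all sites lay between 61.3% and 65.1%. Depth per site is unknown, since the table holds percentages only. The paper reports the most raw reads per replicate in MET_P and the fewest in CON_P. Over all sites, the median site SD was 5.85 in CON_P, 4.54 in MET_P, 5.11 in CON_noP and 5.25 in MET_noP. CON_P was thus the widest and MET_P the narrowest group over the whole table. Whether the number of reads bears on these spreads or on the group differences was not tested.

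The gene mean, the mean methylation level over the sites of a gene, of ADGRB1 was 69.4%, 63.4%, 63.6% and 57.4% in CON_P libraries S14, S18, S26 and S30. In MET_P libraries S15, S19, S27 and S31 it was 59.2%, 57.9%, 58.3% and 60.4%. The first 3 CON_P libraries were above every MET_P library and S30 was below all of them. The group means were 63.4% ± 4.90 (SD, n = 4) and 58.9% ± 1.12 (SD, n = 4), a difference of -4.50 percentage points (SE 2.51) that chose the gene and was not tested. CON_noP had 61.3% ± 2.51 (SD, n = 4) and MET_noP 61.7% ± 4.07 (SD, n = 4). From lowest to highest the groups stood as MET_P, CON_noP, MET_noP and CON_P, and every pair of neighbours overlapped.

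TSHZ2 repeated this layout. Its gene mean was 82.8%, 78.8%, 79.8% and 73.2% in the CON_P libraries in the same order, and 77.6%, 73.5%, 73.0% and 76.2% in the MET_P libraries. S14 was again the highest and S30 fell inside the MET_P range. The means were 78.7% ± 4.02 and 75.1% ± 2.18 (SD, n = 4 each), a difference of -3.59 percentage points (SE 2.29). CON_noP stood at 75.5% ± 1.62 and MET_noP at 77.8% ± 3.65 (SD, n = 4 each), so that the order of the groups was the same as in ADGRB1, again with overlap between neighbours. Both genes were chosen for MET_P below CON_P, so the shared order follows in part from the choice.

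UBE2E2 moved the least. Its gene mean was 85.7%, 85.0%, 82.7% and 82.0% in CON_P and 82.1%, 82.4%, 82.8% and 81.5% in MET_P. The group means of 83.9% ± 1.78 and 82.2% ± 0.550 (SD, n = 4 each) differed by -1.65 percentage points (SE 0.932). S26 and S30 lay within the MET_P range, and S14 and S18 lay above it. CON_noP had 83.2% ± 1.23 and MET_noP 84.4% ± 1.64 (SD, n = 4 each). MET_noP ranged from 83.2% to 86.9%, above the highest MET_P library at 82.8%. A low MET_P mean chose the gene, so this separation is a description, and the share of all genes that part in this way was not determined.

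**Figure D1:**
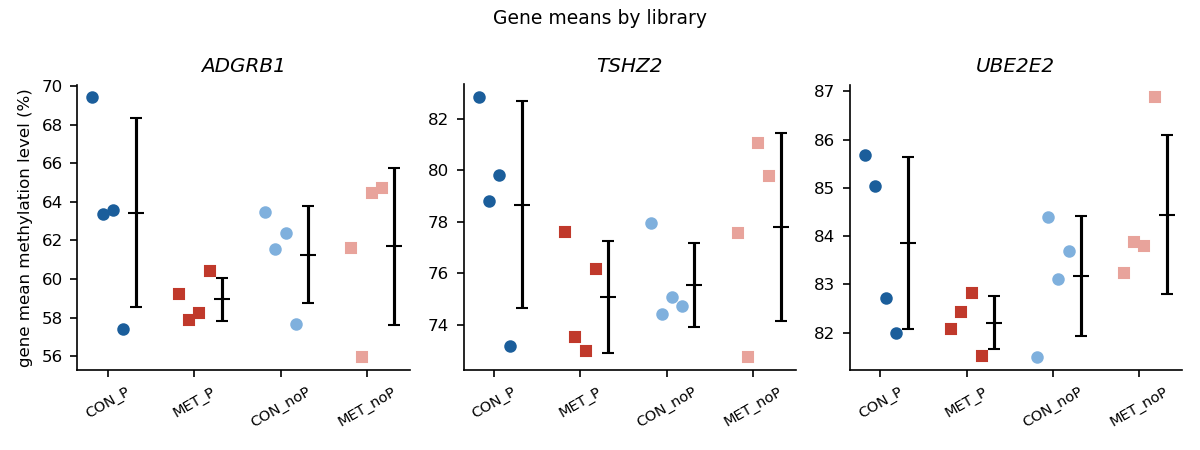
Gene mean methylation level in percent (vertical axes, which do not start at 0) of ADGRB1, TSHZ2 and UBE2E2 in each library, by group (horizontal axis), where points are libraries and the bar is the mean with 1 SD, n = 4. CON_P is the widest group in each gene, from 57.4% to 69.4% in ADGRB1, and MET_P is narrow and low, from 57.9% to 60.4%.

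S14 was the highest and S30 the lowest CON_P library in all 3 genes. The mean over all sites was also highest in S14 among the CON_P libraries, at 65.1%. S18 had 64.3%, S26 62.19% and S30 62.22%. The list mean of adhesion G protein-coupled receptor genes was 69.4%, 67.9%, 65.0% and 63.5% in S14, S18, S26 and S30. In the lists of ADGRB1 partners, Teashirt genes and ubiquitin enzymes another CON_P library was lowest. The high place of S14 was thus not particular to the 3 genes. Without S14 the MET_P minus CON_P difference of the gene means was -2.51 in ADGRB1, -2.20 in TSHZ2 and -1.04 in UBE2E2, and without S30 it was -6.51, -5.41 and -2.27 percentage points. The sign thus held without either library, while the size depended on both. Among the 169 genes with at least 80 sites, this difference ranked first from the lowest in ADGRB1, at place 3 in TSHZ2 and at place 24 in UBE2E2. The median was 0.013 percentage points. The genes were chosen on this difference, so the ranks follow in part from the choice and are a description.

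The question of whether RPM went with lower methylation of these genes in cows that did not become pregnant rests on libraries that did not choose them. No difference passed the test there. MET_noP minus CON_noP was 0.43 percentage points in ADGRB1 (SE 2.39), 2.25 in TSHZ2 (SE 1.99) and 1.27 in UBE2E2 (SE 1.03). The two-sided exact permutation p was 0.8, 0.314 and 0.314, where 0.0286 is the smallest that 4 against 4 libraries allow. Over all 8719 genes with at least 2 sites, the limma adjusted p was 0.981, 0.897 and 0.912. The difference was thus above 0 in all 3 genes and within the spread between libraries in each, and its sign depended on the processing. It turned in ADGRB1 and UBE2E2 when libraries were centred on the same median, in ADGRB1 and TSHZ2 by the median over sites, and in ADGRB1 without S25, S28 or S29. At an unadjusted p under 0.05, limma called 4.75% of the genes higher and 1.64% lower in MET_noP, and at an adjusted p under 0.05 it called 0%.

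The comparisons by pregnancy outcome share libraries with the contrast that chose the genes and are given as values. CON_P minus CON_noP was 2.18 (SE 2.75), 3.12 (SE 2.17) and 0.68 (SE 1.08) percentage points in ADGRB1, TSHZ2 and UBE2E2. MET_P minus MET_noP was -2.75 (SE 2.11), -2.72 (SE 2.12) and -2.24 (SE 0.865). The means of all 3 genes were thus higher with pregnancy on the control diet and lower with pregnancy under RPM. The choice of genes with MET_P below CON_P favours both of these signs. Whether the difference by outcome depends on the diet was not tested.

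At single sites, MET_P was lower than CON_P at 108 of 160 sites of ADGRB1, 54 of 80 of TSHZ2 and 72 of 140 of UBE2E2, where 46.2% of all sites were lower. These are 67.5%, 67.5% and 51.4% of the sites of each gene. All 4 MET_P libraries were below all 4 CON_P libraries at 3 sites of ADGRB1, 0 of TSHZ2 and 6 of UBE2E2, beside 1.17% of all sites. They were above at 0, 1 and 2 sites, beside 1.92%. These counts come from the contrast that chose the genes and are a description.

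In the libraries without pregnancy, MET_noP was lower than CON_noP at 80 sites of ADGRB1, 32 of TSHZ2 and 55 of UBE2E2, and 42.6% of all sites were lower. The shares of 50%, 40% and 39.3% stood near that of all sites. All MET_noP libraries were above all CON_noP libraries at 8, 0 and 3 sites, where 1.85% of all sites were so, and below at 0, 0 and 1 site, where 0.903% were so. By limma, 8 sites of ADGRB1, 0 of TSHZ2 and 10 of UBE2E2 were higher in MET_noP at an unadjusted p under 0.05, against 3.36% of all sites. At the same level 1, 0 and 1 site were lower, against 1.77% of all sites. No site of the 3 genes passed an adjusted p of 0.05 in limma, and 0% of all sites did. The lowest adjusted p was 0.266 in ADGRB1, 0.906 in TSHZ2 and 0.177 in UBE2E2.

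The lower level with RPM in the pregnancy groups lay at sites of intermediate methylation. Sites were classed by their mean over the 8 libraries without pregnancy, which the choice of genes did not use. The differences themselves come from the contrast that chose the genes and are a description, and neighbouring sites of a block are not independent. In ADGRB1 the median MET_P minus CON_P difference was -6.83 percentage points over 102 sites between 20% and 80%, of which 83 were lower, and 0.93 over the 50 sites above 80%. In TSHZ2 it was -10.3 over 29 intermediate sites, of which 28 were lower, and -0.07 over 51 sites above 80%. In UBE2E2 it was -8.99 over 33 intermediate sites, of which 20 were lower, and 0.12 over 106 sites above 80%. Over all intermediate sites of the table the median was 0.29 and 48.7% were lower. The small gene differences of TSHZ2 and UBE2E2 thus averaged a few intermediate stretches with many sites near full methylation. In UBE2E2 the intermediate blocks did not share a direction. Those starting at 42470330 and 42671756 differed by -20.0 and -11.0 percentage points. Those starting at 42564212, 42608351 and 42672056 were higher in MET_P, by 1.90, 8.00 and 6.28.

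**Figure D2:**
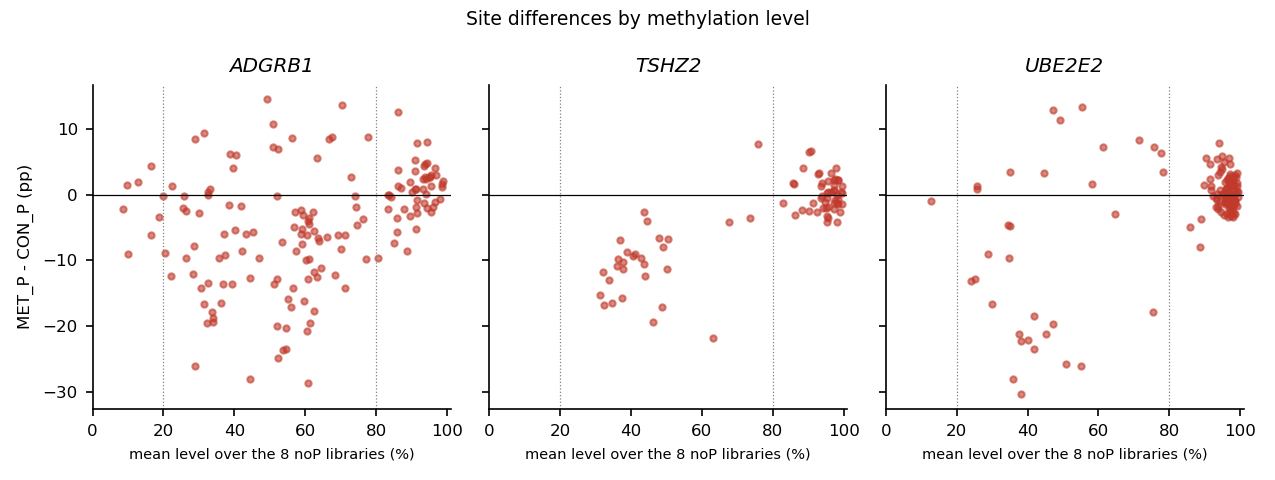
MET_P minus CON_P difference in percentage points (vertical axis) of each site of ADGRB1, TSHZ2 and UBE2E2, against its mean methylation level in percent over the 8 libraries without pregnancy (horizontal axis), where points are sites and dotted lines mark 20% and 80%. Sites above 80% gather around 0, while intermediate sites reach -28.7, -21.8 and -30.4 percentage points.

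With sites classed by their mean over the pregnancy libraries, the 28 intermediate sites of TSHZ2 had a median MET_noP minus CON_noP difference of 7.84 percentage points, and 1 of them was lower. The corresponding median was -0.19 over 102 sites of ADGRB1 and 0.83 over 30 sites of UBE2E2. Over all intermediate sites of the table it was 2.51 and 36.8% were lower. The 28 and 29 intermediate sites of TSHZ2 were classed on different libraries, and no difference between the contrasts was tested. Most of these sites lay in its blocks of 18 and 6 sites, and neighbouring sites of a block are not independent. MET_noP minus CON_noP in these blocks was 7.43 (SE 6.38, limma adjusted p = 0.921) and 10.1 (SE 7.48, limma adjusted p = 0.894).

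Along ADGRB1, the level changed from block to block. Of its 8 blocks with at least 8 sites, the most methylated was the 11 sites at chr14:1800238-1800369, 2.41 kb from the first site, with 93.8% ± 2.97 in CON_P and 95.0% ± 1.29 in MET_P (SD, n = 4 each). The 10 sites at chr14:1818851-1819146 stood at 80.3% ± 3.41 and 81.8% ± 1.92, the 9 at chr14:1826633-1826931 at 73.4% ± 3.78 and 72.7% ± 1.78, and the 8 at chr14:1829402-1829772 at 58.3% ± 6.37 and 57.7% ± 3.86. In these 4 blocks MET_P and CON_P differed by 1.51 percentage points or less. The other 4 were lower in MET_P.

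The first block of ADGRB1, 12 sites in 85 bp at chr14:1797832-1797916, had block means of 71.6%, 45.4%, 42.4% and 21.6% in CON_P libraries S14, S18, S26 and S30. In the MET_P libraries it had 28.8%, 25.2%, 25.6% and 34.1%. The CON_P libraries thus ran from the highest to the lowest of all 16, and all 12 sites were lower in the MET_P mean, for a difference of -16.8 percentage points (SE 10.5), or -8.01 without S14 and -24.7 without S30. In CON_noP the block stood at 22.6%, 33.6%, 30.6% and 29.5%, and in MET_noP at 37.4%, 39.5%, 42.7% and 48.5%. There the groups did not overlap and the direction was opposite, with MET_noP higher by 12.95 percentage points (SE 3.37). The share of all blocks without overlap in this contrast was not determined. The limma difference on the M scale, the log2 ratio of methylated to unmethylated percentages, was 0.81 (SE 0.28), and its adjusted p of 0.824 over 26923 blocks did not pass. Its unadjusted p was 0.0159, which stands beside 4.12% of blocks higher, 1.51% lower and 0% called at an adjusted p under 0.05 in limma.

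The block of 18 sites at chr14:1810485-1810728 carried 35.1% of the summed MET_P minus CON_P difference of ADGRB1. Its means were 74.3%, 63.7%, 72.4% and 52.6% in CON_P and 56.0%, 33.6%, 52.3% and 64.9% in MET_P. The groups overlapped, and all 18 sites were lower in MET_P, by between -6.07 and -28.1 percentage points, with a block difference of -14.0 (SE 8.24), or -8.00 without MET_P library S19. The values were 64.3%, 63.1%, 64.0% and 48.5% in CON_noP and 55.9%, 41.9%, 65.7% and 73.9% in MET_noP. MET_noP minus CON_noP was -0.64 (SE 7.89, limma adjusted p = 0.997).

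The 8 sites at chr14:1842856-1842933 had 72.2% ± 6.75 in CON_P and 61.1% ± 4.56 in MET_P (SD, n = 4 each), with 7 sites lower and a difference of -11.2 percentage points (SE 4.07). MET_noP minus CON_noP was 0.50 there (SE 5.66, limma adjusted p = 0.99). A smaller block of 4 sites at chr14:1823333-1823382 went the other way and was named after its values were seen. It had 78.5% ± 7.29 in CON_P and 89.1% ± 2.75 in MET_P, and 81.4% ± 3.42 in CON_noP and 89.8% ± 2.30 in MET_noP (SD, n = 4 each). The RPM libraries lay above the control libraries without overlap in both comparisons, by 10.6 and 8.45 percentage points, and the latter had a limma adjusted p of 0.823. The share of all blocks without overlap was not determined for either comparison.

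The last block of ADGRB1, 21 sites at chr14:1862125-1862308, showed a split between neighbouring cytosines. As a whole it had 63.8% ± 11.8 in CON_P and 54.7% ± 6.02 in MET_P (SD, n = 4 each), with 20 of 21 sites lower and a difference of -9.12 (SE 6.65). It held 4 CpGs with both neighbouring positions measured, which were taken as the cytosines of the opposite strands of 1 CpG. At the first positions, 1862166, 1862168, 1862175 and 1862186, MET_P minus CON_P was -4.49, -6.05, -4.87 and -2.63 percentage points. At the second positions, 1862167, 1862169, 1862176 and 1862187, it was -23.5, -28.7, -23.6 and -20.2. In these 4 CpGs the lower level in MET_P was thus larger at the second positions, and most other sites of the block were lower as well.

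Averaged over the 4 CpGs, the second positions stood at 82.2%, 68.3%, 70% and 57.4% in CON_P libraries S14, S18, S26 and S30, and at 34.7%, 57.4%, 43.3% and 46.4% in the MET_P libraries. The first positions stood at 84.8%, 48.9%, 58.3% and 40.5% in CON_P and at 59.3%, 57.1%, 40.3% and 57.9% in MET_P, which overlapped widely. In the groups without pregnancy the RPM difference was -2.94 at the first and -3.58 at the second positions. Over the 9469 CpGs of the table with both positions measured, the MET_P minus CON_P difference of the positions lay a median of 3.94 percentage points apart, and 5.88% lay at least 15 apart. In ADGRB1 4 of 6 such CpGs did, all in this block, and in TSHZ2 and UBE2E2 0 of 4 and 0 of 12. The positions were chosen after their values were seen, and what sets them apart was not tested.

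**Figure D3:**
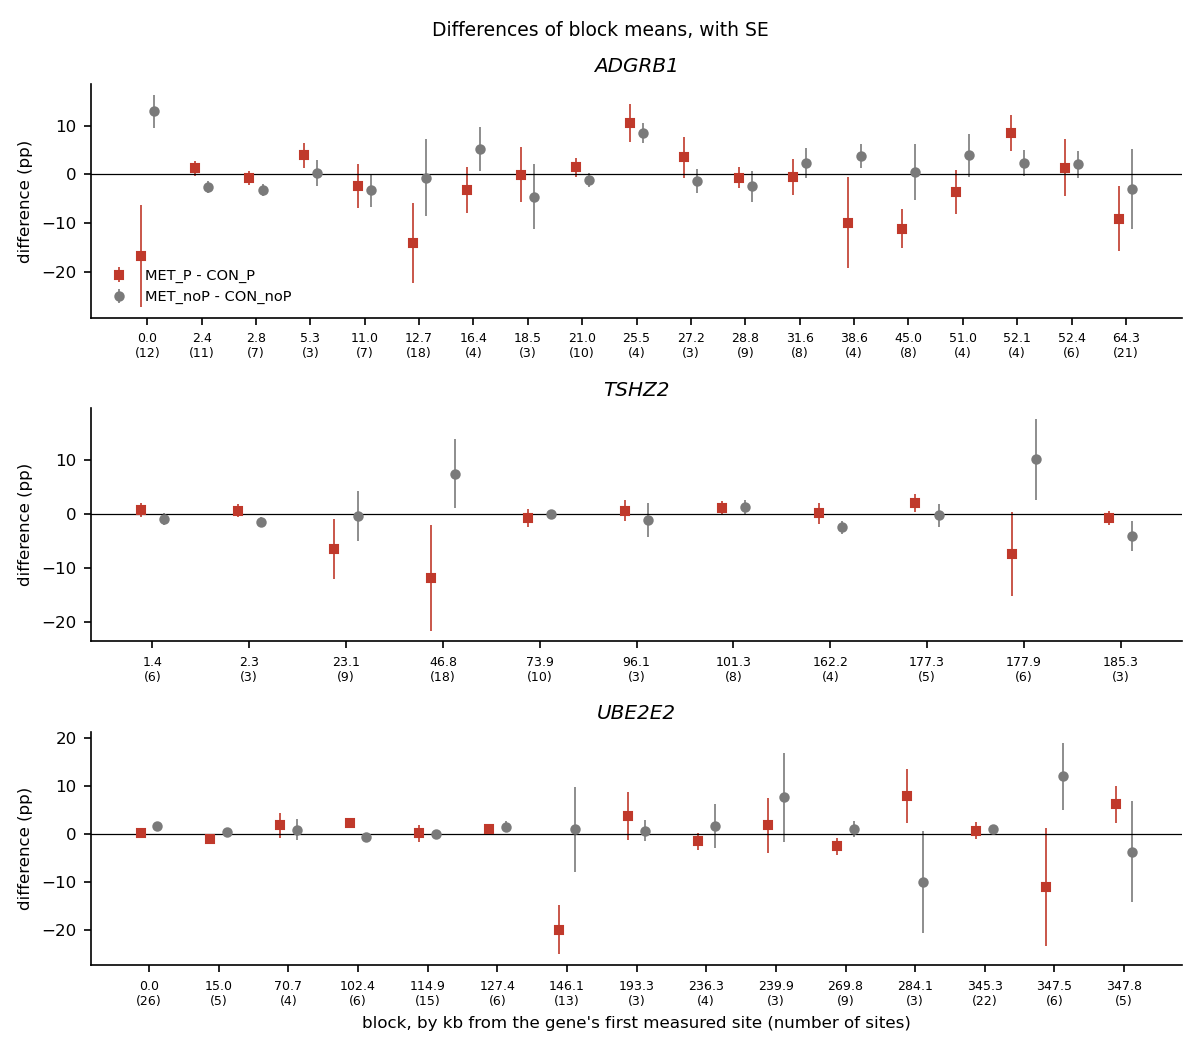
Differences of block means in percentage points (vertical axes) along ADGRB1, TSHZ2 and UBE2E2 for MET_P minus CON_P (squares) and MET_noP minus CON_noP (circles), with bars of 1 SE. Blocks of at least 3 sites stand in order on the horizontal axis, labelled by kb from the first measured site and by their number of sites. Most lie near 0. In the first contrast a few reach between -7.37 and -20.0, and others lie above 0, up to 10.6 in ADGRB1 and 8.00 in UBE2E2.

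In TSHZ2 the difference lay mostly in a single stretch among its 4 blocks with at least 8 sites. The 18 sites at chr13:80913862-80914057 carried 73.9% of its summed MET_P minus CON_P difference. This block stood at 66.3%, 43.2%, 46.7% and 22.0% in CON_P and at 41.0%, 29.1%, 24.4% and 36.5% in MET_P. All 18 sites were lower in the MET_P mean, for a difference of -11.8 percentage points (SE 9.80), although S30 was below every MET_P library. The difference was -4.52 without S14 and -19.3 without S30. In CON_noP it stood at 39.6%, 33.6%, 34.3% and 32.4% and in MET_noP at 44.2%, 25.6%, 55.4% and 44.4%, and here all 18 sites were higher with RPM, by 7.43 percentage points on average (SE 6.38, limma adjusted p = 0.921). This difference was 3.10 without S25 and 13.04 without S17.

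The 9 sites at chr13:80890186-80890243 of TSHZ2 had 81.8% ± 10.8 in CON_P and 75.4% ± 2.79 in MET_P (SD, n = 4 each), with all 9 lower and a difference of -6.41 (SE 5.58). The remaining large blocks were close to full methylation and did not separate. The 10 sites at chr13:80940973-80941029 stood at 98.0% ± 1.10 and 97.2% ± 3.06, and the 8 at chr13:80968384-80968482 at 95.4% ± 2.31 and 96.5% ± 1.21.

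The second TSHZ2 block by size of difference held 6 sites at chr13:81044959-81045045, 178 kb from the first site. It stood at 31.6%, 58.3%, 46.9% and 55.8% in CON_P and at 43.9%, 34.9%, 31.3% and 53.1% in MET_P, a difference of -7.37 percentage points (SE 7.76). S14, the highest CON_P library in the gene mean and in the block of 18 sites, was the lowest here. The difference was -3.99 without S18 and -12.9 without S14. The 6 sites were higher with RPM without pregnancy, where MET_noP had 58.3%, 32.7%, 57.8% and 53.9% against 53.4%, 36.7%, 33.7% and 38.4% in CON_noP, a difference of 10.1 (SE 7.48, limma adjusted p = 0.894) that was 16.1 without S17. Outside both blocks the other 56 sites of TSHZ2 averaged 92.9% ± 1.13 in CON_P and 92.4% ± 0.806 in MET_P (SD, n = 4 each).

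UBE2E2 held the clearest separation of the 3 genes. Its block of 13 sites at chr27:42470330-42470480, 146 kb from the first site, had 61.3%, 41.7%, 50.4% and 40.4% in CON_P libraries S14, S18, S26 and S30 and 26.4%, 32.6%, 24.9% and 29.99% in the MET_P libraries. It was the only block of at least 3 sites in the 3 genes in which every MET_P library was below every CON_P library. This contrast chose the genes, so the separation is a description, and the share of all blocks that separate so was not determined. The means of 48.5% ± 9.64 and 28.5% ± 3.48 (SD, n = 4 each) differed by -20.0 percentage points (SE 5.13), and by between -15.7 and -22.7 with any single library left out. Of the 13 sites 12 were lower, and 5 of them without overlap, beside 1.17% of all sites. This block made up 113% of the summed difference of UBE2E2, since the rest of the gene was slightly higher in MET_P.

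The same block in the groups without pregnancy spread widely. It stood at 30.6%, 64.7%, 37.7% and 44.9% in CON_noP and at 37.3%, 36.7%, 53.1% and 54.7% in MET_noP. The difference was 1.002 percentage points (SE 8.84, limma adjusted p = 0.988). All MET_P libraries were also below all MET_noP libraries, by -17.0, while CON_P and CON_noP overlapped and differed by 4.02. MET_P was the lowest of the 4 group means, with the nearest other mean at 44.4% ± 14.7 in CON_noP (SD, n = 4). Gene and block were chosen on the MET_P minus CON_P difference, so the low place of MET_P follows in part from the choice. How many blocks have MET_P below MET_noP without overlap was not determined over the whole table.

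**Figure D4:**
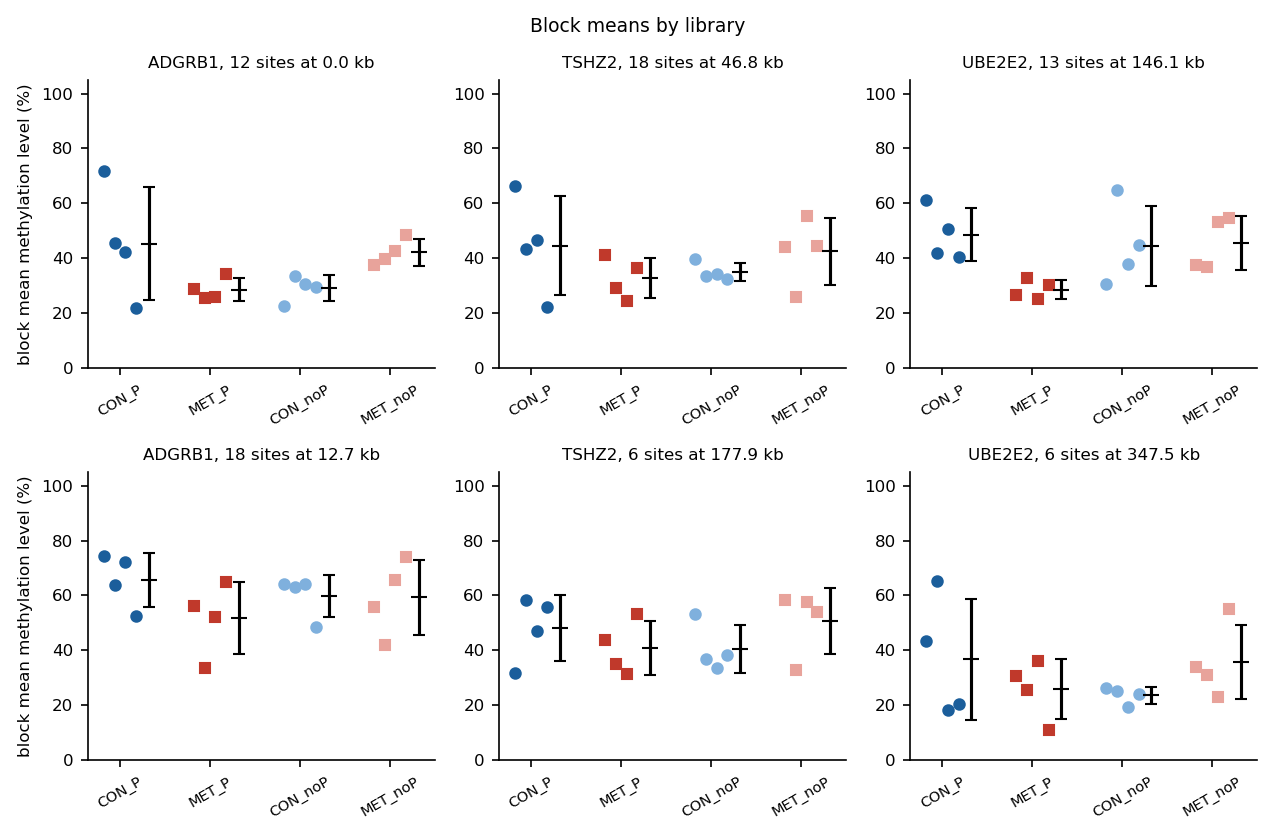
Block mean methylation level in percent (vertical axis) by library and group (horizontal axis) in the 2 blocks of each gene with the largest MET_P minus CON_P difference, where points are libraries and the bar is the mean with 1 SD, n = 4. The MET_P and CON_P points part completely only in the UBE2E2 block of 13 sites, with 24.9% to 32.6% against 40.4% to 61.3%.

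The second UBE2E2 block held 6 sites at chr27:42671756-42671810, near the last measured site. It had 43.5%, 65.2%, 18.02% and 20.4% in CON_P and 30.8%, 25.4%, 36.2% and 10.7% in MET_P, a difference of -11.0 (SE 12.3). It was -1.51 without S18, -5.96 without S31 and -17.2 without S26. MET_noP stood at 33.9%, 31.1%, 22.9% and 55.0% and CON_noP at 26.1%, 24.95%, 19.1% and 24.03%, a difference of 12.1 (SE 6.999, limma adjusted p = 0.874) that was 5.73 without S29. The other 4 large blocks of UBE2E2, with 26, 15, 9 and 22 sites, had group means between 93.8% and 98.3%. Among them the 26 sites at chr27:42324262-42324504 stood at 96.5% ± 1.21 in CON_noP and 98.3% ± 0.265 in MET_noP (SD, n = 4 each), a difference of 1.80 with an adjusted p of 0.859 in limma.

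The 2 sites of each gene with the largest MET_P minus CON_P difference lay mostly in these blocks. In UBE2E2, position 42470437 was at 50.0%, 41.7%, 56.2% and 29.4% in CON_P and at 14.9%, 14.7%, 7.14% and 18.9% in MET_P, a difference of -30.4 percentage points. Position 42470475 differed by -28.1, and at both sites the groups did not overlap. In ADGRB1, position 1862169 was at 86.7%, 73.3%, 70% and 55.6% in CON_P and at 30.6%, 51.1%, 41.5% and 47.6% in MET_P, again without overlap. Position 1810577 differed by -28.1 with overlap, and so did TSHZ2 positions 80890186 and 80914015, by -21.8 and -19.4. None of these 6 sites differed between MET_noP and CON_noP at an unadjusted p of 0.05 in limma.

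**Figure D5:**
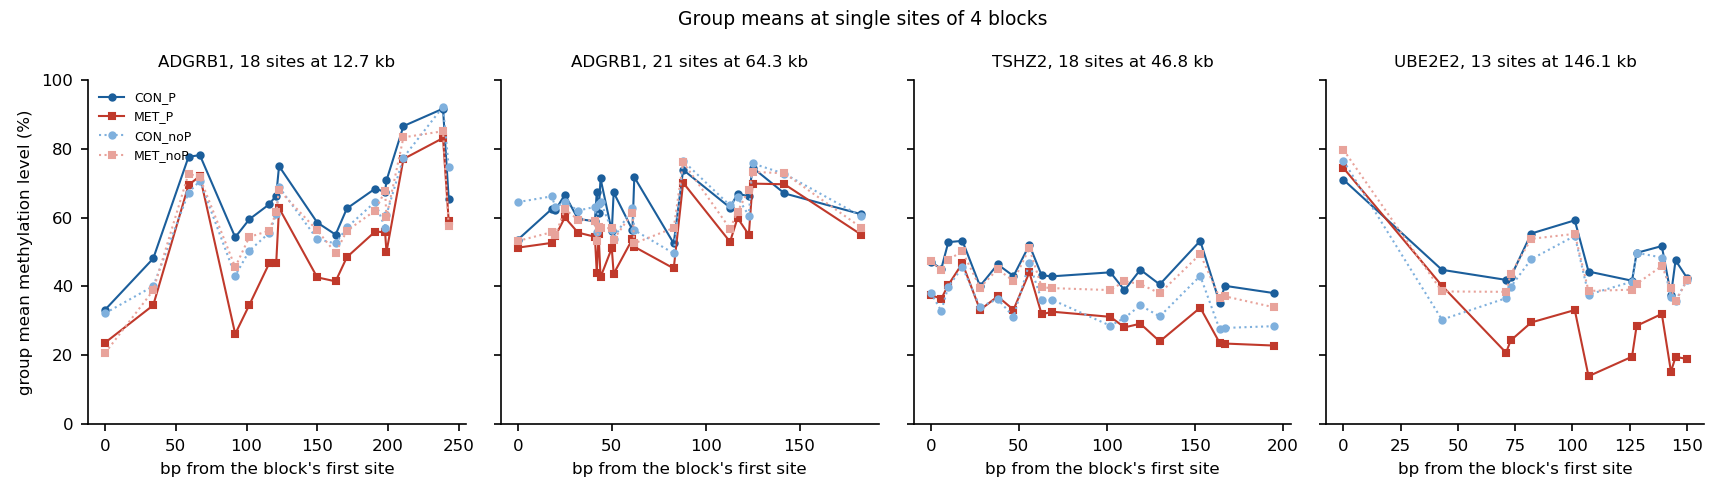
Group mean methylation level in percent (vertical axis) at each site of 4 blocks, by bp from the first site of the block (horizontal axis), with circles for CON, squares for MET, dark solid lines for pregnancy and pale dotted lines for no pregnancy, n = 4 libraries per point. In the UBE2E2 block MET_P reaches 13.9% where CON_P has 44.3%, and in the ADGRB1 block of 21 sites CON_P and MET_P part at single positions next to each other.

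Of the 8 sites of ADGRB1 at which every MET_noP library was above every CON_noP library, 4 were in its first block, where all 4 were lower in MET_P than in CON_P. Their MET_noP minus CON_noP differences ran from 15.5 to 20.9 percentage points. In UBE2E2, position 42324489 was at 100% in all 4 MET_noP libraries and averaged 94.1% in CON_noP, with the adjusted p of 0.177 given above. ADGRB1 position 1800668 was likewise at 100% in MET_noP and averaged 95.8% in CON_noP. The smallest p-values of both genes thus came from differences of 5.88 and 4.20 percentage points at the upper limit of the scale.

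Over the 16 libraries, the gene means of ADGRB1 and TSHZ2 followed each other, with Pearson r = 0.900 and Spearman rho = 0.909. UBE2E2 had r = 0.512 with ADGRB1 and 0.438 with TSHZ2. Over the 8 libraries without pregnancy, which did not choose the genes, r was 0.840 between ADGRB1 and TSHZ2, 0.146 between UBE2E2 and ADGRB1 and 0.193 between UBE2E2 and TSHZ2. These are descriptions over libraries that share groups. Among 5725 genes with at least 5 sites, the closest to ADGRB1 were MUC1 (r = 0.921), GNB1L (0.917) and CACNA1H (0.912), and the closest to TSHZ2 were LGR4 (0.945), ARID4B (0.936) and MUC1 (0.933). MUC1 encodes a mucin of the apical surface of epithelial cells, and LGR4 a receptor for R-spondins. The closest to UBE2E2 were IFI6 (0.816), an interferon-induced gene, AGBL1 (0.780) and CECR2 (0.770).

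The relatives and partners of the 3 genes were not chosen for a low level in MET_P and are given by counts. Of 31 adhesion G protein-coupled receptor genes 21 were measured, and 10 were lower in MET_P than CON_P with a median difference of 0.19 percentage points, beside 39.9% of all 8719 genes lower and a median of 0.53. At an unadjusted p under 0.05 in limma, ADGRG5 and ADGRL3 were called in that contrast, 1 in each direction, beside 1.79% of all genes lower and 5.47% higher, and 0% of genes passed after adjustment. The 21 differences ran from -13.8 to 4.66. CELSR1, with 239 sites, was at 0.19 in MET_P minus CON_P and at 1.42 in MET_noP minus CON_noP. ADGRA2, with 76 sites, was at -1.70 and 4.28, and ADGRA1, with 62 sites, at -1.61 and 4.78. ADGRB2, a relative of ADGRB1 with 39 sites, had 58.7% ± 1.38 in CON_P and 59.2% ± 0.927 in MET_P, and ADGRB3 had 93.7% ± 2.79 and 96.0% ± 0.683 (SD, n = 4 each). In the groups without pregnancy 7 of the 21 were lower with a median of 0.65, beside 36.9% of all genes and a median of 0.63. ADGRA1, ADGRD2 and ADGRG3 were higher there at an unadjusted p under 0.05 in limma, beside 4.75% of all genes higher and 1.64% lower.

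Of 13 partners of ADGRB1 in engulfment and at the membrane 10 were measured, and 5 were lower in MET_P and 3 in MET_noP. Of all genes 39.9% and 36.9% were lower in the same contrasts. None of the partners was at an unadjusted p under 0.05 in limma in either contrast. DOCK1, the exchange factor that acts with ELMO downstream of ADGRB1, stood at 74.4% ± 2.17 in CON_P and 74.4% ± 0.197 in MET_P (SD, n = 4 each). All 7 genes of the Teashirt family and its partners were measured, with 3 lower in MET_P, 2 lower in MET_noP and none at an unadjusted p under 0.05. CTBP1, a corepressor with 62 sites, was at 0.06 in MET_P minus CON_P and at 0.48 in MET_noP minus CON_noP. CTBP2, a corepressor with 53 sites, was at -1.85 and 1.95. TSHZ1 had 93.1% ± 1.86 and 92.4% ± 1.52, and TSHZ3 had 76.7% ± 3.19 and 79.4% ± 0.994, in CON_P and MET_P (SD, n = 4 each).

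Of 39 ubiquitin E2 and E1 enzyme genes 18 were measured, and 8 were lower in MET_P and 6 in MET_noP, with medians of 0.20 and 0.63 percentage points. Over all genes 39.9% and 36.9% were lower, with medians of 0.53 and 0.63. At an unadjusted p under 0.05 in limma, UBE2L6 and UBE2V2 were called in the first contrast and UBE2D1 and UBE2N in the second. In each contrast 1 was lower and 1 higher. These calls stand beside 1.79% of all genes lower and 5.47% higher in the first contrast, and 1.64% and 4.75% in the second. UBE2O was at -1.54 in MET_P minus CON_P and at 1.83 in MET_noP minus CON_noP, and UBE2A was at 0.97 and 0.26. UBE2E1, the neighbour of UBE2E2, had 78.0% ± 1.10 in CON_P and 77.9% ± 1.06 in MET_P (SD, n = 4 each). None of the genes of these lists passed an adjusted p of 0.05 in limma in either contrast.

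Genes that mark cell types in a brushing varied between the same libraries. Over the 5 measured of 11 epithelial genes, the list mean ran from 25.4% to 35.3% in CON_P, from 27.7% to 31.7% in MET_P, from 27.3% to 33.9% in CON_noP and from 24.6% to 37.1% in MET_noP. Its lowest and highest CON_P values were those of S30 and S14. ELF3, an epithelial transcription factor gene, had 53.4%, 27.97%, 31.3% and 13.8% in CON_P libraries S14, S18, S26 and S30, and 18.9%, 18.97%, 19.2% and 31.9% in MET_P. S14 was thus the highest and S30 the lowest CON_P library in ELF3, as in the gene means of ADGRB1 and TSHZ2. Other epithelial genes stood in another order, since GRHL2 was highest in S26 at 69.4% and CDH1 was highest in S18 at 7.07% and lowest in S26 at 5.42%.

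Over 13 measured of 22 leukocyte genes, the list mean ran from 55.0% to 65.7% in CON_P, from 59.1% to 61.3% in MET_P, from 58.7% to 60.5% in CON_noP and from 54.3% to 59.5% in MET_noP. S14 was again highest, and S26 was lowest in CON_P. PTPRC, which encodes the leukocyte antigen CD45, had 77.8%, 68.7%, 47.5% and 64.6% in CON_P libraries S14, S18, S26 and S30. Other leukocyte genes stood in another order. ITGB2 was highest in S14 at 48.1% and lowest in S30 among the CON_P libraries, as in the gene means of ADGRB1, TSHZ2 and UBE2E2. RUNX3 was highest in S18 at 48.4% and lowest in S30 at 31.1%. Over 5 of 7 stromal genes the list mean lay between 38.1% and 44.7% in all libraries, and in CON_P S14 was lowest and S18 highest at 43.2%. At an unadjusted p under 0.05 in limma, ITGAL and SPI1 were called between MET_P and CON_P and IKZF1 between MET_noP and CON_noP. Beside them stand 1.79% of all genes lower and 5.47% higher in the first contrast, and 1.64% and 4.75% in the second. None of the 3 marker lists held a gene called after adjustment. The share of the cell mixture in the levels of ADGRB1, TSHZ2 and UBE2E2 was not tested.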

How the data were processed

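The 16 RRBS libraries, 4 in each of 4 groups, were analysed. Per the labels and the study's methods, the authors used Trim Galore for trimming, Bismark and SAMtools for alignment against the ARS-UCD1.2 build, and quantified methylation in SeqMonk at positions with at least 10 reads. The deposited table gives the percent methylation of each CpG position and library, without read counts, so the depth behind single values is unknown and a count test could not be made. Libraries were taken to groups from the column headings. Per the study's methods, DNA was isolated from more brushings than there are libraries, and from more in each group without pregnancy than in each group with it. How many cows a library holds is not given in the sources used here, and p-values measure the spread between these libraries. Gene and block means were computed from the percentages. MET_noP and CON_noP were compared by limma 3.58.1 in R 4.3.3 on M = log2((percent + 1)/(100 - percent + 1)) with Benjamini-Hochberg adjustment over all sites, genes (at least 2 sites) or blocks (at least 3 sites, gaps of at most 200 bp), and by two-sided exact permutation tests of the gene means. The fit was tested on simulated data. Described were blocks of at least 8 sites and, per library, the 2 blocks of each gene with the largest MET_P minus CON_P difference. Also described were the 2 sites of each gene with the largest such difference, and the 3 closest genes by Pearson r. From each gene list, some of the genes with most sites and the closest relatives were given. The genes and lists were chosen with earlier results of these data known. No genome of the same build was used here, so no sequence is shown.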

Additional observations from a re-analysis of the deposited data

Results flagged for a closer look

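In the ADGRB1 block of 18 sites at chr14:1810485-1810728, CON_noP library S28 stood at 48.5%, apart from the other 3 libraries of its group at 63.1%, 64.0% and 64.3%. It was the only library set apart in this way among 36 groups of 4 library values, the 4 groups of the 3 gene means and of the 6 blocks given per library. About 1 in 20 such groups would be set apart by chance.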

How the results depend on the processing

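In none of the alternatives did a gene mean pass an adjusted p of 0.05 between MET_noP and CON_noP (lowest adjusted p 0.526, in TSHZ2). The median over sites turned the difference to -1.88 in ADGRB1 and -0.528 in TSHZ2, and centring libraries on the same median turned it to -1.29 in ADGRB1 and -0.450 in UBE2E2, since it shifted every gene difference by -1.73 here and by -1.64 in MET_P minus CON_P. Leaving out 1 library each gave -0.760 to 2.34 in ADGRB1, negative without S25, S29 or S28, 1.16 to 3.92 in TSHZ2 and 0.467 to 1.68 in UBE2E2. For the block at 1810485 it gave -5.51 to 5.19, and for the block at 42470330 -3.63 to 7.76. MET_P minus CON_P by the median over sites was -8.68 in ADGRB1, 0.808 in TSHZ2 and 0.603 in UBE2E2. With sites of 10% to 90% only it was -7.99 in TSHZ2 and -7.18 in UBE2E2. With equal weight for each block it was -2.07, -1.18 and -0.177 in the 3 genes, and after centring it was -3.29 in UBE2E2. Leaving out 1 library gave -6.51 to -2.51, -5.41 to -2.20 and -2.27 to -1.04. Sites lower in MET_noP at an unadjusted p under 0.05 numbered 2 in all, 5 with all libraries in 1 model and 4 to 10 with 1 library left out, and sites higher numbered 18 and 17 to 22. Of the blocks given per library, leaving 1 library out of MET_P minus CON_P was chosen after seeing the data. The cause of these changes was not tested. No paired analysis was possible because the columns carry library numbers that the labels do not tie to replicate numbers. With sets of consecutive library numbers as a term of the model, each set holding 1 library of every group, the adjusted p was 0.982, 0.881 and 0.898 in the 3 genes, and no label says what a set shares. Without read counts, depth per site could not be weighed, and differences within the spread between libraries could not be resolved with 4 libraries per group.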
